A study of Mus musculus with 3 samples.

Results

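Droplet libraries hold many barcodes with far fewer UMIs (unique molecular identifiers, each counting 1 captured RNA molecule) than cells, generally taken to come from droplets that enclosed only suspension fluid. The RNA of such barcodes, called free RNA here, was compared with the RNA of called cells in 3 libraries of mouse embryonic stem cells. In each library the barcodes were ordered by UMIs, and the 10000 barcodes at ranks 5001 to 15000 were taken as free RNA. This gave 30000 free-RNA barcodes of the 3237014 barcodes listed. Called cells were barcodes with at least 11033 UMIs in the control library, 2961 at 3 h and 2107 at 6 h, with no fewer than 500 genes and no more than 20% mitochondrial UMIs, which gave 2031, 2365 and 2926 cells. The numbers of UMIs and genes and the upper limit of the mitochondrial share in cells were therefore fixed by the choice of barcodes and are given only as a description.

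The cells were of the E14 line, derived from 129/Ola mice and cultured on gelatin in medium with serum and leukaemia inhibitory factor (LIF). From 24 h after plating, tubercidin at 10 uM was present for 3 h or for 6 h, and control cells had the solvent DMSO for 6 h. Each condition was 1 library of 10x Genomics Single Cell 3' v3 chemistry sequenced on a NextSeq 2000. Treatment and library can therefore not be told apart, no difference between libraries was tested, and no p-value is given.

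In a droplet experiment the suspension fluid is enclosed with every cell, so RNA released by broken cells is barcoded in droplets with and without cells. Cytoplasmic messenger RNA, RNA kept in the nucleus, ribosomal RNA and RNA inside mitochondria lie in different compartments, and their balance outside cells need not match that inside intact cells. Tubercidin is an adenosine analogue that cells phosphorylate and incorporate into RNA, and it is known to disturb nuclear speckles and ribosomal RNA processing.

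Free-RNA barcodes held a median of 343, 210 and 138 UMIs in the control, 3 h and 6 h libraries, against 48452, 11877 and 8004.5 UMIs in cells. Their UMIs summed to 3470457, 2137653 and 1413294, which was 3.001%, 6.04% and 4.81% of all UMIs of the library. At the upper limit of the range the barcodes just inside and just outside had equal counts, 405, 260 and 180 UMIs, and so had those at the lower limit, with 308, 188 and 123 UMIs. The cell with the fewest UMIs had 11061, 2963 and 2112 UMIs and the fullest barcode under the minimum had 11014, 2957 and 2104. A transcript with 0 UMIs in free RNA could be at up to 0.864, 1.40 and 2.12 CPM (counts scaled to a total of 1000000 over a sum), the level of 3 counts.

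Pluripotency genes were present in both sums. The 22 listed markers of embryonic stem cells held 0.434%, 0.613% and 0.44% of free-RNA UMIs against 0.596%, 0.654% and 0.504% of the UMIs of cells. Lists for other cell types were near 0 on both sides, and none of their members reached the level needed for comparison. The 11 fibroblast markers summed to 8.07, 9.82 and 8.49 CPM in free RNA and to 8.09, 6.59 and 11.3 CPM in cells, and the highest sum of any list for primitive endoderm, trophoblast, 2-cell-like or blood cells was 11.9 CPM. Libraries shared 1 cell barcode in each pair, and between 2 and 13 of the 10000 free-RNA barcodes of a library were called as cells in another.

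To compare the pools, the UMIs of each gene were summed over the free-RNA barcodes and over the cells of a library and scaled to CPM. The log2 ratio of free RNA over cells was taken after adding 1 CPM to both, so it understates the difference of low genes. Of 32285 genes, the 5592 that averaged 20 CPM or more across the 6 sums were compared, and at least 1.5-fold was called higher or lower. Intervals are 95% and cover counting error only; they are for the ratio without the added 1 CPM, and they say nothing of how a second culture would differ. CPM values are UMIs of a 3' assay and are not scaled to transcript length, so levels are compared within a gene and not between genes. Where 3 values are given without further label, they are those of the control, 3 h and 6 h libraries, in this order.

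By CPM, few genes were over-represented outside cells and more were under-represented, a balance that in the control depended on the scaling. In the control library 124 of 5592 genes (2.22%) were at least 1.5-fold higher in free RNA and 580 (10.4%) were at least 1.5-fold lower. At 3 h 70 genes (1.25%) were higher and 1687 (30.2%) lower, and at 6 h 85 (1.52%) were higher and 1273 (22.8%) lower. The median log2 ratio over all genes was -0.26 in the control library, -0.37 at 3 h and -0.34 at 6 h. Part of this offset is set by scale: a few rRNA-derived genes held a large share of free RNA and lowered the CPM of all others. TMM scaling moved every log2 ratio of a library up by 0.14, 0.26 and 0.28, to medians of -0.12, -0.12 and -0.07. With the rRNA-derived genes and Camk1d left out of the totals, the control median was 0.02, and the medians were -0.32 at 3 h and -0.09 at 6 h. The control counts then were 345 genes higher and 59 lower, and under TMM 200 higher and 199 lower. Under TMM more genes were still lower than higher at 3 h (674 and 185) and at 6 h (397 and 186). Another scaling adds nearly the same constant to every gene of a library, so gene groups are described by their distance from the median of all genes.

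**Figure D1:**
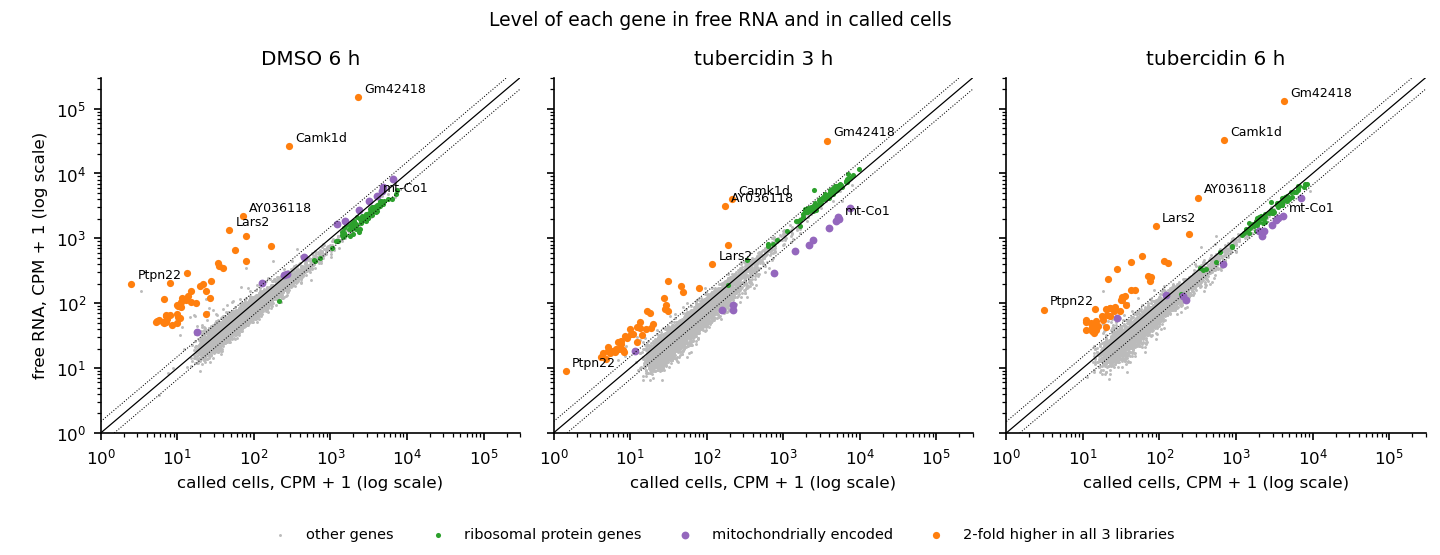
CPM of each gene in free RNA (y axis, log scale) against CPM in called cells (x axis, log scale), 1 panel per library, each point 1 of 5592 genes. Most genes lie near the diagonal, while Gm42418 and Camk1d stand far above it in the control and 6 h libraries and less far at 3 h.

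In every library the largest share of free-RNA UMIs fell on Gm42418, a non-coding gene model within the mouse 45S ribosomal RNA precursor locus (ENSMUSG00000098178; mm10, chromosome 17, 39846958 to 39848788, + strand). Its level was 150149 CPM in free RNA against 2259 CPM in cells in the control library, 32231 against 3753 CPM in the 3 h library and 130755 against 4178 CPM in the 6 h library. Free RNA was far above cells in every library, and least so at 3 h. The log2 ratio was 6.05 (6.05 to 6.06) in the control library, 3.10 (3.09 to 3.12) at 3 h and 4.97 (4.96 to 4.98) at 6 h. The 3 h ratio differed from the control by -2.95 (-2.97 to -2.94) on the log2 scale and the 6 h ratio by -1.09 (-1.10 to -1.07). Both comparisons use the same control library, here and below. At 3 h the gap lay mainly in free RNA, where Gm42418 differed from the control by -2.22 on the log2 scale, while in cells it differed by 0.73. At 6 h the difference was -0.20 in free RNA and 0.89 in cells.

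AY036118 is annotated on the opposite strand inside Gm42418 (chromosome 17, 39847113 to 39848035, - strand). Within this stretch, reads of the pair can be told apart only by strand. Its level was 2195 CPM in free RNA against 71.2 CPM in cells in the control library, 3124 against 172 CPM in the 3 h library and 4249.6 against 315 CPM in the 6 h library. It was over-represented outside cells in all 3 libraries, with log2 ratios of 4.93, 4.17 and 3.75. Gm26917, the neighbouring model at the start of the same locus (39843013 to 39846341, + strand), stood at 449.8 CPM in free RNA against 318 CPM in cells in the control library, 1224 against 1637 CPM in the 3 h library and 1089.7 against 552 CPM in the 6 h library. Its log2 ratios of 0.50, -0.42 and 0.98 were far smaller, and at 3 h cells were higher. Together the list of rRNA-derived gene models took 15.3%, 3.66% and 13.6% of free-RNA UMIs, against 0.265%, 0.556% and 0.505% of the UMIs of cells.

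Other genes than rRNA models were over-represented too. At least 2-fold higher in free RNA were 75 genes (1.34%) in the control library, 50 (0.894%) at 3 h and 60 (1.07%) at 6 h, and 46 genes were so in all 3. These 46 were picked out after their values were seen, and nothing about their ratios was tested. They summed to 187680.0 CPM of free RNA in the control library, 42629.5 at 3 h and 175801 at 6 h, against 3532, 5035 and 6786 CPM in cells. Of the 46, 36 have established names, with a median log2 ratio of 3.05 in the control library (range 1.48 to 6.51), 1.64 at 3 h (range 1.05 to 4.24) and 1.803 at 6 h (range 1.09 to 5.54). Many of the 46 entered the comparison through free RNA: 28 average under 20 CPM over the 3 sums of cells. A gene can therefore be among them because its free RNA was high, and these medians support no comparison between libraries.

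Camk1d, a calcium/calmodulin-dependent kinase, carried the second largest amount of free RNA among the 46. Its level was 26276 CPM in free RNA against 287 CPM in cells in the control library, 4063 against 214 CPM in the 3 h library and 32620.2 against 701 CPM in the 6 h library, with log2 ratios of 6.51, 4.24 and 5.54. The excess outside cells was smaller after tubercidin, with differences from the control of -2.27 (-2.32 to -2.22) at 3 h and -0.97 (-1.005 to -0.94) at 6 h. With free RNA taken from barcodes with 10 to 100 UMIs, the 3 h difference reversed to 1.59 for Camk1d and 0.89 for Gm42418, and the 6 h difference to 3.11 for Gm42418. That window held 5764, 1742 and 9236 barcodes with means of 23.8, 28.7 and 61.3 UMIs. The barcode at rank 20000 had 271, 164 and 110 UMIs. The window therefore took unlike barcodes in the 3 libraries, and these differences do not compare like with like. Ptpn22, a protein tyrosine phosphatase best known from lymphocytes, was at 199.7 CPM in free RNA against 1.497 CPM in cells in the control library, 7.95 against 0.435 CPM in the 3 h library and 78.5 against 2.07 CPM in the 6 h library. It was barely counted in control cells, with a log2 ratio of 6.33, but the 3 h ratio of 2.64 rests on 17 UMIs in free RNA and 13 in cells. Lars2, the mitochondrial leucyl-tRNA synthetase, was at 1354 CPM in free RNA against 47.0 CPM in cells in the control library, 396 against 116 CPM in the 3 h library and 1527 against 88.3 CPM in the 6 h library. Its log2 ratios of 4.82, 1.76 and 4.10 were high in the control and 6 h libraries and much lower at 3 h.

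Gphn, the scaffold protein gephyrin of inhibitory synapses, was at 1068 CPM in free RNA against 78.0 CPM in cells in the control library, 146 against 47.6 CPM in the 3 h library and 541 against 57.3 CPM in the 6 h library. Free RNA was highest in the control and the log2 ratios were 3.76, 1.60 and 3.22. Cmss1 differed little between the libraries, with log2 ratios of 2.15, 2.07 and 2.25 and levels of 748 CPM in free RNA against 168 CPM in cells in the control library, 793 against 189 CPM in the 3 h library and 1155 against 242 CPM in the 6 h library. Sec61a1, the pore of the endoplasmic reticulum translocon, was at 446 CPM in free RNA against 77.3 CPM in cells in the control library, 170.3 against 77.8 CPM in the 3 h library and 423 against 129 CPM in the 6 h library, with log2 ratios of 2.51, 1.12 and 1.71. Naaladl2 (4.43, 1.71 and 3.49), Grik1, a kainate receptor subunit (3.53, 2.02 and 1.97), and Klhl14 (3.37, 2.00 and 1.72) were also among the 46. So were Dpyd, the first enzyme of pyrimidine breakdown (3.30, 1.84 and 2.35), and the collagen receptor Mrc2 (3.19, 1.93 and 2.23). Of these, only Grik1 averages 20 CPM or more over the 3 sums of cells. The ratios of the others therefore support no comparison between libraries.

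Many of the 46 genes are long, a feature that the choice of barcodes did not use. Their median genomic span was 169.9 kb, and 27 of 46 (58.7%) spanned over 100 kb, Lrp1b, Cntnap2, Pcdh15, Csmd3 and Ctnna3 among them. Since a level in free RNA could bring a gene into the comparison, the span was also taken over genes that average 20 CPM or more over cells alone. The 18 such genes of the 46 had a median span of 161 kb, and 10 spanned over 100 kb, against a median of 27.6 kb and 14.6% over 100 kb among all 5530 such genes. This comparison was added after seeing the data. Whether reads in introns were counted is not given in the sources used here.

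The 46 genes were also expressed as UMIs per barcode. Over all UMIs, a mean free-RNA barcode held 0.672%, 1.69% and 1.68% of the UMIs of a mean cell in the control, 3 h and 6 h libraries, and for the median of all genes 0.558%, 1.30% and 1.32%. For the median of the 46 genes, which were selected for a high ratio, it held 6.53%, 5.89% and 6.21%. On this scale the 46 differed among themselves: 10 exceeded 10% in at least 1 library and 36 in none, a division also made after the values were seen. For Camk1d a free-RNA barcode held 61.4%, 32.1% and 78.0% of the UMIs of a mean cell, and for Gm42418 44.7%, 14.5% and 52.4%. The percentages were 89.6%, 30.9% and 63.7% for Ptpn22 and 20.7%, 30.7% and 22.6% for AY036118. For these 4 genes a barcode without a cell therefore held from 14.5% to 89.6% as many UMIs as a barcode with one. Lars2 (19.4%, 5.76% and 28.96%) was, like Gm42418 and Camk1d, lowest at 3 h. Naaladl2 was at 15.6%, 5.96% and 19.7%. It and Ptpn22 average under 20 CPM over the 3 sums of cells, so their values support no comparison between libraries.

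The selection bounds this percentage for the other 36 genes, below by the 2-fold limit and above by the 10% limit, so their values are a description only. They ran from 1.93% to 8.59% in the control library, from 3.67% to 8.14% at 3 h and from 3.67% to 9.27% at 6 h. Cmss1 was at 2.99%, 7.11% and 7.99% and Ptpn9, a tyrosine phosphatase, at 1.93%, 3.67% and 4.91%.

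Cells with different numbers of UMIs gave a further description of both groups. The cells of a library were divided into 5 equal groups by UMIs. From the cells with the fewest UMIs to those with the most, the summed CPM of the 10 genes went from 4202 to 2389 CPM in the control library, from 9567 to 3732 CPM at 3 h and from 8151 to 4716 CPM at 6 h. It was lower in cells with more UMIs in each library, while the UMIs per cell of the same genes went from 129 to 191, from 54.0 to 80.05 and from 32.3 to 66.2. They were not steadily higher: in the group with the next to fewest UMIs they were 120.1 in the control and 39.8 at 3 h. The summed CPM of the 36 genes changed less, from 676 to 809.9, from 729.8 to 683 and from 1277 to 1447 CPM. A free-RNA barcode held 63.2, 8.62 and 24.1 UMIs of the 10 genes, and 1.897, 0.494 and 0.699 UMIs of the 36. Subtracting 1 mean free-RNA barcode from every cell raised the log2 ratios of Gm42418 to 6.90, 3.30 and 6.01 and those of Camk1d to 7.87, 4.77 and 7.69, and left the order of the libraries unchanged for both.

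**Figure D2:**
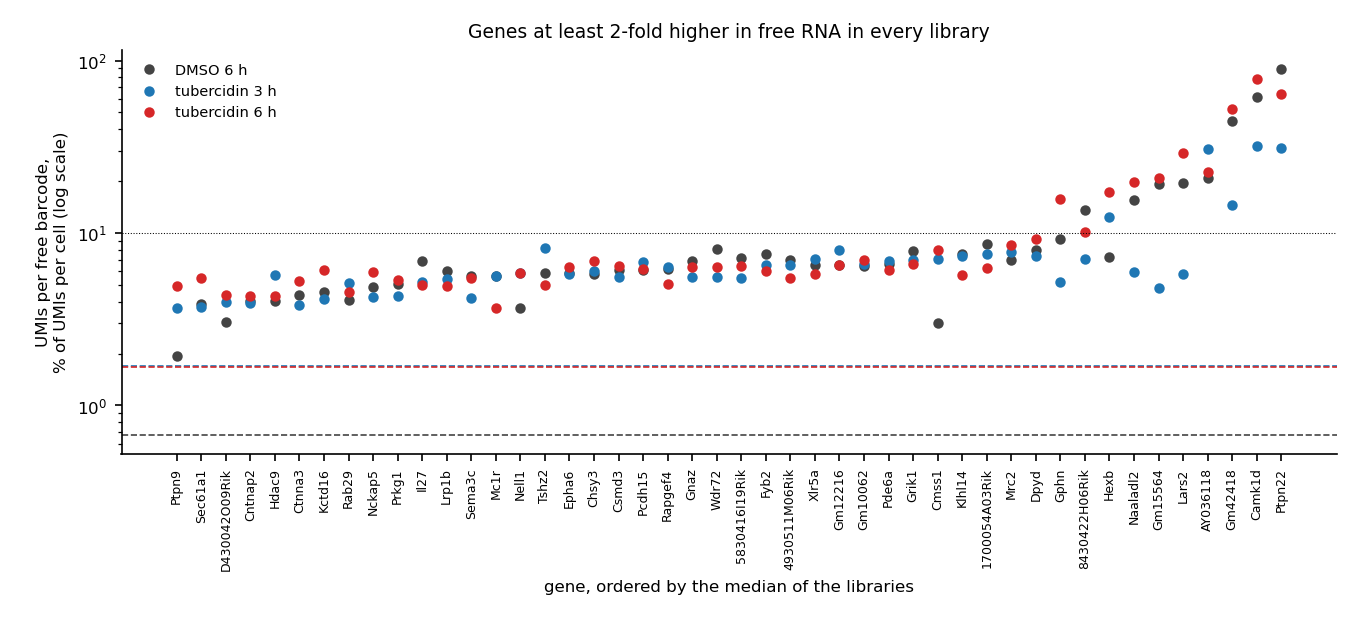
UMIs of a mean free-RNA barcode as a percent of those of a mean cell (log axis) for the 46 genes at least 2-fold higher outside cells in all 3 libraries, 1 point per gene and library, with the value for all UMIs marked. The 36 genes limited to 10% or less lie between 1.93% and 9.27%, and Camk1d, Gm42418 and Ptpn22 reach 44.7% or more in the control.

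The composition of barcodes changed along the rank order. The rRNA-derived share was 0.265%, 0.556% and 0.505% in cells and 7.78%, 2.96% and 4.45% between the cells and rank 5000. It was 15.3%, 3.59% and 13.6% at ranks 5000 to 10000 and 15.2%, 3.74% and 13.6% at ranks 10000 to 15000. It was level across the free-RNA range and beyond it to rank 30000 (14.3%, 3.65% and 13.4%). After rank 100000, where barcodes had a median of 1 UMI in each library, it was 0.847%, 1.27% and 1.64%. Whether those barcodes came from droplets without a cell was not tested, so the high share is described up to rank 30000 only. Camk1d followed the same course, with 0.0287%, 0.0214% and 0.0701% in cells, 2.69%, 0.401% and 3.33% and 2.56%, 0.413% and 3.18% in the upper and lower part of the free-RNA range and 0.116%, 0.11% and 0.261% after rank 100000.

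The mitochondrial share took another course. It was 2.95%, 3.43% and 2.87% in cells and 10.04%, 7.41% and 7.42% between the cells and rank 5000. At ranks 5000 to 10000 it was 4.005%, 1.44% and 1.85%, and at ranks 10000 to 15000 3.07%, 1.19% and 1.40%. At ranks 15000 to 30000 it was 2.34%, 1.09% and 1.20%. After rank 30000 it was higher again, 4.07%, 4.30% and 2.15% up to rank 100000 and 3.79%, 4.21% and 2.86% beyond it, and at 3 h above the share in cells in both ranges. The barcodes between the cells and the free-RNA range were the richest in mitochondrial UMIs in each library, and the share declined with rank within the free-RNA range, unlike that of rRNA-derived genes.

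**Figure D3:**
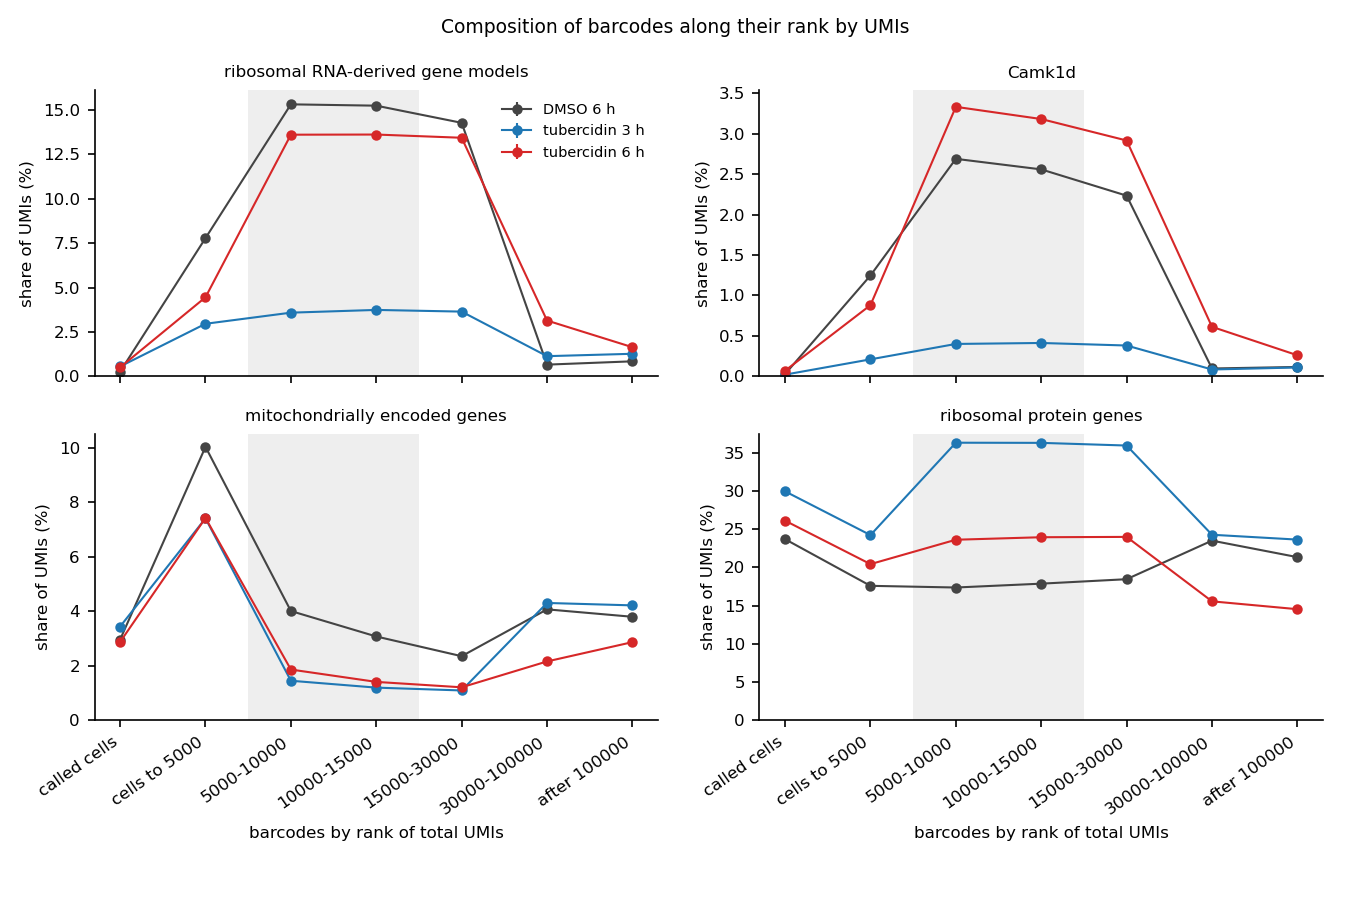
Share of UMIs (%, y axis) of rRNA-derived, mitochondrially encoded and ribosomal protein genes in successive ranges of barcode rank (x axis), 1 line per library. The rRNA-derived share is 15.3% in the control at ranks 5000 to 10000 and 0.265% in its cells. The mitochondrial share peaks at 10.0% between the cells and rank 5000.

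Transcripts of the mitochondrial genome, which encode subunits of the respiratory chain and ATP synthase, were slightly over-represented outside control cells and under-represented outside tubercidin-treated cells. Their share of free-RNA UMIs was 3.57% in the control library, 1.33% at 3 h and 1.65% at 6 h, against 2.95%, 3.43% and 2.87% in cells. All 13 listed genes were compared. Their median log2 ratio was 0.24, -1.37 and -0.78, beside medians of -0.26, -0.37 and -0.34 for all genes. In the control 2 of 13 were at least 1.5-fold higher in free RNA and 0 were lower, at 3 h 1 was higher and 12 were lower, and at 6 h 1 was higher and 11 were lower. These directions were the same under TMM scaling, with medians of 0.38, -1.11 and -0.50. The direction in the control depended on the barcodes taken as free RNA. Its share was 2.34% at ranks 15000 to 30000 and 2.65% among barcodes with 10 to 100 UMIs, both below its cells. Because cells above 20% mitochondrial UMIs were left out, the share in cells has an upper limit set by the choice of cells.

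mt-Co1, a catalytic subunit of cytochrome c oxidase, was at 4422 CPM in free RNA against 4034 CPM in cells in the control library, 1984 against 5333 CPM in the 3 h library and 2230.2 against 4092 CPM in the 6 h library. Free RNA was close to cells in the control and lower after tubercidin, with log2 ratios of 0.13 (0.11 to 0.16), -1.43 (-1.47 to -1.38) and -0.88 (-0.93 to -0.82). mt-Co2 of the same enzyme was at 5404 CPM in free RNA against 4656 CPM in cells in the control library, 1445 against 4003 CPM in the 3 h library and 1622 against 2963 CPM in the 6 h library, and its log2 ratios were 0.21, -1.47 and -0.87. mt-Nd5, a subunit of respiratory complex I, was at 284 CPM in free RNA against 269 CPM in cells in the control library, 291 against 768 CPM in the 3 h library and 396 against 672 CPM in the 6 h library. Its level differed from the control more in cells than in free RNA, and the log2 ratios were 0.08, -1.40 and -0.76. mt-Nd3, another complex I subunit, was lower after tubercidin in both pools, at 522 CPM in free RNA against 444 CPM in cells in the control library, 78.6 against 221 CPM in the 3 h library and 113 against 219 CPM in the 6 h library, with log2 ratios of 0.23, -1.48 and -0.96. mt-Nd6 departed from the rest. It is the only messenger RNA read from the light strand of the mitochondrial genome, and it was higher outside cells in every library, at 35.2 CPM in free RNA against 16.9 CPM in cells in the control library, 17.3 against 10.6 CPM in the 3 h library and 57.3 against 27.3 CPM in the 6 h library. Its log2 ratios were 1.02, 0.65 and 1.04, and -0.0077 at 3 h with free RNA from ranks 15000 to 30000. mt-Atp8, a subunit of ATP synthase, had log2 ratios of 0.71, -1.02 and 0.13.

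The difference from the control was of similar size for nearly all mitochondrial genes. A log2 ratio at least 1.5-fold higher than in the control was found for 460 of 5592 genes (8.23%) at 3 h and 51 (0.912%) at 6 h, and one at least 1.5-fold lower for 1280 (22.9%) and 636 (11.4%). Of the 13 mitochondrial genes, 12 were lower at 3 h and 12 at 6 h. Their median differences were -1.63 at 3 h and -1.08 at 6 h, beside -0.17 and -0.10 over all genes. Set against 3 h, the 6 h ratio was at least 1.5-fold higher for 447 genes (7.99%), 5 of the 13 mitochondrial genes among them, and lower for 280 (5.01%), with 0 of the 13.

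Mitochondrial UMIs were unevenly spread over free-RNA barcodes. The variance of the mitochondrial UMI count between barcodes was 18.9, 8.42 and 8.85 times the binomial variance at the pooled share, against 1.48, 1.31 and 1.503 times for ribosomal protein genes, 2.24, 1.45 and 1.996 for rRNA-derived genes and 1.12, 1.08 and 1.04 for nuclear long non-coding RNAs. The median free-RNA barcode held 1.70%, 0.518% and 0.714% mitochondrial UMIs, below the medians of 2.87%, 3.28% and 2.81% in cells in each library, and the 95th percentile reached 12.3%, 5.20% and 6.98%. Over 5% mitochondrial UMIs were found in 2346, 528 and 796 of 10000 barcodes, where a binomial draw at the pooled share and each barcode's UMIs gives 811, 1.53 and 46.9. These barcodes carried 65.2%, 36.2% and 49.9% of the mitochondrial UMIs of free RNA, and without them the share was 1.63%, 0.894% and 0.897%. Leaving out barcodes by this share lowers it by construction; without them free RNA lay below cells in all 3 libraries, the control included.

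Mitochondrial transcripts occurred together in the same barcodes. Free-RNA barcodes with a UMI of mt-Co1 held 4.51%, 2.40% and 3.91% UMIs of the other mitochondrial genes, against 1.25%, 0.665% and 0.792% in those without. For Rpl3, a protein of the large ribosomal subunit, barcodes with and without a UMI held nearly the same share of other ribosomal protein UMIs, 17.5% against 17.4% in the control library, 36.3% against 36.1% at 3 h and 23.8% against 23.6% at 6 h. Barcodes over 5% mitochondrial UMIs differed little from the others in the rest of their RNA by this measure: ribosomal protein genes took 18.4%, 36.6% and 24.2% of their other UMIs, against 18.2%, 36.8% and 24.2% in the barcodes at or under 5%.

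**Figure D4:**
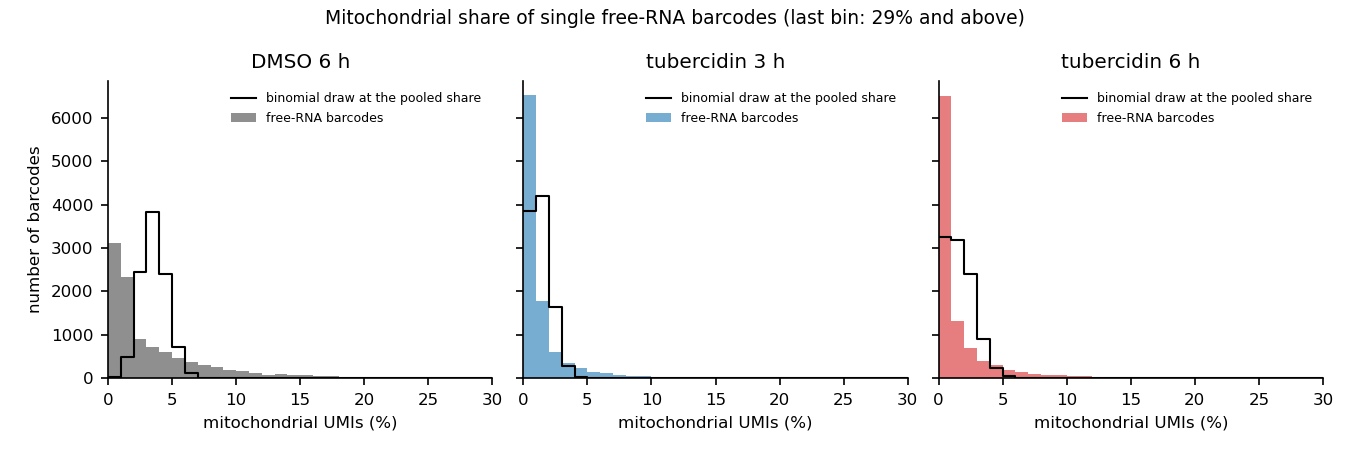
Number of free-RNA barcodes (bars, y axis) by their mitochondrial share of UMIs (%, x axis), 1 panel per library. The black line gives the number under a binomial draw at the pooled share. Free RNA has medians of 1.70%, 0.518% and 0.714% and a long upper tail beyond the line. Called cells, with medians of 2.87%, 3.28% and 2.81%, are not drawn.

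Ribosomal protein transcripts, short and abundant messengers of the cytoplasm, were under-represented outside control cells and slightly over-represented at 3 h. They took 17.6% of free-RNA UMIs in the control library, 36.3% at 3 h and 23.8% at 6 h, against 23.7%, 29.97% and 26.1% in cells. All 81 listed genes were compared, and their median log2 ratios were -0.44, 0.26 and -0.13. Above 0 were 0 of 81 in the control library, 80 at 3 h and 11 at 6 h. The share of all genes above 0 was not counted. With medians of -0.26, -0.37 and -0.34, most genes lay below 0 in each library. Few of the 81 passed 1.5-fold. In the control 12 were lower, where 10.4% of all genes were, and at 3 h 1 was higher, where 1.25% of all genes were. Relative to the median of all genes they were lower in the control and higher in both tubercidin libraries. At 6 h the sign depended on the scaling, since the median was 0.15 under TMM, and with the rRNA-derived genes and Camk1d left out of the totals the shares there were 28.6% in free RNA and 26.3% in cells. The difference from the control had a median of 0.70 at 3 h, with 68 of 81 at least 1.5-fold higher (8.23% of all genes), and 0.30 at 6 h, with 1 higher.

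Rps26, a small-subunit protein, had the largest difference from the control at 3 h. It was at 2207 CPM in free RNA against 2813 CPM in cells in the control library, 5515 against 2561 CPM in the 3 h library and 3659.5 against 2901 CPM in the 6 h library. Its log2 ratios were -0.35, 1.11 and 0.34, and the differences from the control were 1.46 (1.41 to 1.499) at 3 h and 0.68 (0.63 to 0.74) at 6 h. Free RNA was thus below cells in the control and above them in both treated libraries. Rpl29 (-0.98, 0.03 and -0.45) and Rps2 (-0.91, 0.02 and -0.52) had the lowest ratios in the control and still lay above it at 3 h. Rps25 (-0.03, 0.55 and 0.14) and Rpl5 (-0.05, 0.40 and 0.24) had the highest in the control. Rpl4 (-0.21, -0.09 and 0.01), one of the longest ribosomal proteins, differed less.

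Nuclear-encoded messengers for mitochondrial proteins had the same order of libraries as ribosomal protein genes. Of the nuclear-encoded genes of oxidative phosphorylation, 78 of 79 were compared, with median log2 ratios of -0.34, 0.16 and -0.15. Their ratio was at least 1.5-fold above the control for 20 at 3 h and for 0 at 6 h, beside 8.23% and 0.912% of all genes. Atp5md (-0.07, 0.51 and 0.04), a small ATP synthase subunit, and Ndufa6 (-0.09, 0.56 and 0.32), a small complex I subunit, were among the highest at 3 h, while Ndufs1 (-0.01, -0.38 and -0.16), the largest complex I subunit, had its lowest ratio there. The nuclear-encoded and the mitochondrially encoded parts of the same complexes therefore differed from the control in opposite directions at 3 h. Translation factors (43 of 43) had medians of -0.32, -0.02 and -0.16. Among them Naca (-0.30, 0.34 and -0.07), a short chaperone of nascent chains, and Eif1 (-0.79, -0.02 and -0.51) were higher at 3 h than in the control library, and the long scaffold Eif4g1 (-0.22, -1.33 and -0.66) and Eif3a (-0.36, -0.88 and -0.63) were lower. Proteasome subunits (31 of 31) had medians of -0.42, 0.00 and -0.23, cytoskeletal genes (33 of 38) -0.47, -0.13 and -0.07, and genes of glycolysis (15 of 18) -0.52, -0.26 and -0.24.

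Across genes, the ratio was related to length with opposite sign in the control and at 3 h. Spearman's rho between the log2 ratio and the length of the encoded protein was 0.35, -0.56 and -0.20 in the control, 3 h and 6 h libraries over 5484 genes, and with the genomic span 0.46, -0.41 and -0.17 over 5578 genes. With the number of exons it was 0.32, -0.45 and -0.18, and with the GC content of exons -0.21, 0.03 and -0.02. These are descriptions: genes are not independent replicates, and all genes of a library share its barcodes and its scaling. In 5 equal groups of genes by protein length the median log2 ratio of the shortest proteins (up to 221 residues) was -0.39, 0.02 and -0.26, and of the longest (903 residues or more) -0.09, -0.65 and -0.45. Genes of long proteins were thus the least depleted outside control cells and the most depleted at 3 h, with 6 h in between. Without the ribosomal protein and oxidative phosphorylation lists rho with protein length was 0.34, -0.53 and -0.18 over 5325 genes. Within 5 equal groups by mean CPM it ran from 0.16 to 0.37 in the control library, from -0.70 to -0.34 at 3 h and from -0.31 to -0.10 at 6 h. With free RNA from barcodes with 10 to 100 UMIs it was 0.13 in the control and 0.010 at 3 h, and with genomic span 0.054 and -0.0021.

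**Figure D5:**
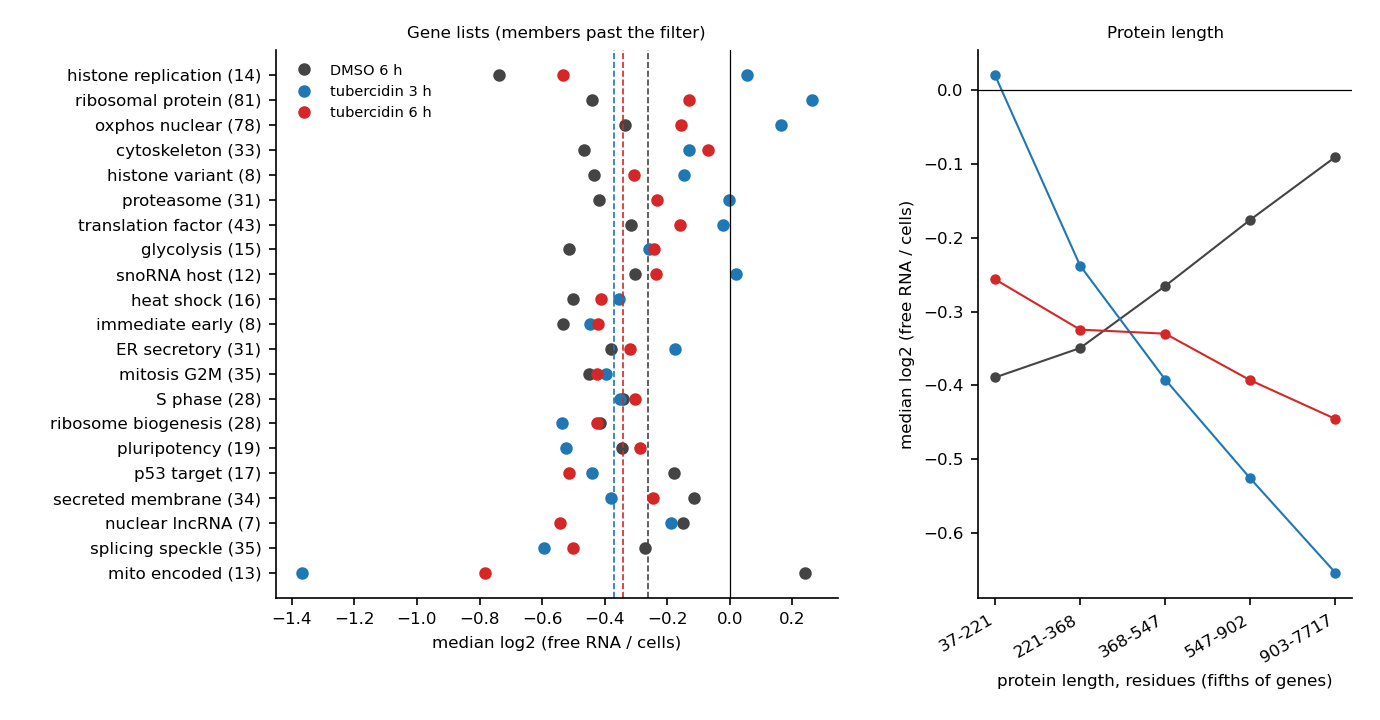
Median log2 ratio of free RNA over cells for gene lists and for 5 equal groups of genes by protein length, 1 colour per library. The mitochondrial list is at 0.24 in the control and -1.37 at 3 h, and the median of the shortest proteins is -0.39 in the control and 0.02 at 3 h.

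Replication-dependent histone genes, whose short messengers lack the usual poly(A) tail, were among the lists most depleted outside control cells. Only 14 of 60 passed the level filter, so the counts describe the abundant members alone. Their median log2 ratio was -0.74, 0.06 and -0.53, with 9 at least 1.5-fold lower in the control and 7 at 6 h (10.4% and 22.8% of all genes), and with 2 higher at 3 h (1.25% of all genes). The difference from the control was at least 1.5-fold higher for 10 of the 14 at 3 h (8.23% of all genes), with a median of 0.79. Hist1h2ap, a histone H2A gene, was at 228 CPM in free RNA against 556 CPM in cells in the control library, 35.6 against 40.0 CPM in the 3 h library and 8.49 against 16.3 CPM in the 6 h library. It was depleted outside cells in the control and at 6 h, with log2 ratios of -1.29, -0.16 and -0.87, and its level in both pools was far lower after tubercidin. Hist1h4d, a histone H4 gene, was at 85.9 CPM in free RNA against 125 CPM in cells in the control library, 116 against 75.7 CPM in the 3 h library and 137 against 178 CPM in the 6 h library (-0.54, 0.60 and -0.37), above cells at 3 h and below them in the other libraries. The linker histone gene Hist1h1e had log2 ratios of -1.04, -0.46 and -0.78, and Hist1h3e of -0.82, -0.46 and -1.72. Histone genes are near-identical copies, so reads may be shared between members.

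RNAs that stay in the nucleus had a median near that of all genes in the control and at 3 h, but members differed. Of the nuclear long non-coding RNAs, 7 of 14 passed the level filter, with median log2 ratios of -0.15, -0.19 and -0.54. At least 1.5-fold lower were 0, 3 and 3 of the 7, beside 10.4%, 30.2% and 22.8% of all genes. At a mean of at least 50 CPM the 3 h median was -0.60. Malat1, a component of nuclear speckles, was at 3109 CPM in free RNA against 3185 CPM in cells in the control library, 3768 against 3615 CPM in the 3 h library and 1923 against 2355 CPM in the 6 h library. Free RNA was close to cells in the control and at 3 h and lower at 6 h, with log2 ratios of -0.03 (-0.06 to -0.01), 0.06 (0.03 to 0.09) and -0.29 (-0.35 to -0.24). Neat1, the scaffold of paraspeckles, had ratios of -0.15, -0.19 and -0.27. Kcnq1ot1 (-0.52, -1.15 and -0.90) and Meg3 (-0.33, -0.99 and -0.84), both imprinted, were more depleted after tubercidin, and Rian (0.38, 0.15 and -0.24), from the same imprinted cluster as Meg3, was not depleted in the control.

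Splicing and ribosome biogenesis are nuclear processes that tubercidin is known to disturb. Messengers for splicing factors stood close to the median of all genes in the control and below it after tubercidin, and those for ribosome biogenesis below it in each library, although with free RNA from barcodes with 10 to 100 UMIs the control median of ribosome biogenesis was 0.105, above that of all genes (-0.016). All 35 listed genes for splicing factors and speckle proteins were compared, and 3 were at least 1.5-fold lower in free RNA in the control library, 19 at 3 h and 14 at 6 h, with medians of -0.27, -0.60 and -0.50. Srrm1, a speckle protein rich in serine and arginine, had log2 ratios of -0.77, -0.96 and -0.87 and Srsf11 of -0.27, -0.95 and -0.60. Srsf2 (0.17, -0.11 and 0.46) and Srsf3 (-0.14, 0.17 and -0.02), splicing factors with short proteins, stayed near or above 0. Of the 28 ribosome biogenesis genes, all compared, 6, 12 and 10 were lower, with medians of -0.41, -0.54 and -0.42. Mybbp1a (-0.66, -1.40 and -0.79) and Rrp1b (-0.76, -1.16 and -1.07), nucleolar proteins, were most depleted at 3 h, whereas Fbl, the methyltransferase fibrillarin, was above cells in each library (0.25, 0.22 and 0.27). Npm1, an abundant nucleolar chaperone, had ratios of -0.48, 0.16 and -0.31. Among all genes 10.4%, 30.2% and 22.8% were lower.

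Nolc1, a nucleolar phosphoprotein of the same list, was 1 of only 2 genes at least 2-fold lower in free RNA in all 3 libraries. It was at 201 CPM in free RNA against 409 CPM in cells in the control library, 141 against 318 CPM in the 3 h library and 212 against 482 CPM in the 6 h library, and its log2 ratios were -1.02, -1.16 and -1.18. The other was Cep164, a protein of the centriole's distal appendages, at 27.7 CPM in free RNA against 59.6 CPM in cells in the control library, 17.3 against 48.1 CPM in the 3 h library and 16.98 against 63.3 CPM in the 6 h library and with ratios of -1.08, -1.42 and -1.84. In single libraries at least 2-fold lower were 17 genes (0.304%) in the control library, 348 (6.22%) at 3 h and 181 (3.24%) at 6 h. The lowest in the control included Rab4b (-1.16, -0.19 and -0.54), a GTPase of endosome recycling, the mitochondrial ribosome protein Mrps5 (-1.13, 0.07 and -0.93), the giant Golgi protein Golgb1 (-1.08, -1.36 and -0.96), the heavy neurofilament Nefh (-1.08, -1.34 and -0.74) and Smarcd1 (-1.04, -0.51 and -1.04), a subunit of SWI/SNF remodelling complexes. Rab4b and Mrps5 were nearer to cells at 3 h, while Golgb1 and Nefh were further below them.

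Zc3h4, a zinc finger protein of the nucleus, had the lowest ratio at 3 h among genes named by rule. It was at 20.7 CPM in free RNA against 26.0 CPM in cells in the control library, 5.61 against 25.1 CPM in the 3 h library and 20.5 against 34.6 CPM in the 6 h library, with log2 ratios of -0.31, -1.98 and -0.72, the second from 12 free-RNA UMIs. Map1b, a microtubule-associated protein, was at 56.2 CPM in free RNA against 65.4 CPM in cells in the control library, 14.03 against 54.3 CPM in the 3 h library and 39.6 against 73.1 CPM in the 6 h library (-0.22, -1.88 and -0.87). Both had similar levels in cells of the control and 3 h libraries, and the gap lay in free RNA. The bromodomain proteins Brd1 (-0.57, -1.82 and -0.99) and Brd3 (-0.32, -1.64 and -0.86), the replication fork protein Timeless (-0.54, -1.81 and -0.60), Pmepa1 (-0.56, -1.78 and -1.66) and Dab2ip (-0.54, -1.68 and -1.51), a Ras GTPase-activating protein, were at -1.64 or lower there. At 6 h Rbm4b, an RNA-binding protein, had a ratio of -2.11, from 11 UMIs in free RNA, and the elongation factor Ell stood at -1.65.

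Differences from the control lay in cells for some genes and in free RNA for others. Cdk8, the kinase of the Mediator complex, was at 348 CPM in free RNA against 78.4 CPM in cells in the control library, 309 against 326 CPM in the 3 h library and 493 against 452 CPM in the 6 h library. It was over-represented outside control cells and level with cells after tubercidin, with log2 ratios of 2.14, -0.08 and 0.13. Its level in cells differed from the control by 2.04 at 3 h and 2.51 at 6 h on the log2 scale, and in free RNA by -0.17 and 0.50. Erc2, an active zone protein of synapses, had ratios of 1.60, -0.52 and 1.12, and its 3 h level differed from the control by -2.17 in free RNA and -0.05 in cells. Tapbpl, a chaperone-like protein of antigen loading, was at 2.88 CPM in free RNA against 4.69 CPM in cells in the control library, 99.2 against 55.1 CPM in the 3 h library and 19.8 against 19.3 CPM in the 6 h library, and its 3 h ratio exceeded that of the control, which had 10 free-RNA UMIs, by 1.39 (0.62 to 2.48). Its level was higher at 3 h in both pools, by 4.69 in free RNA and 3.30 in cells. Positive differences at 6 h included 0.92 (0.36 to 1.55) for Slc25a11, the mitochondrial oxoglutarate carrier (-0.30 with free RNA from ranks 15000 to 30000), 0.80 (0.36 to 1.30) for the kinase Rps6ka6 and 0.78 (0.55 to 1.03) for the mitochondrial ribosome protein Mrpl45.

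Pluripotency genes in free RNA differed by member. Of the list, 19 of 22 were compared, with medians of -0.34, -0.52 and -0.29, and 3, 8 and 5 were at least 1.5-fold lower in free RNA, beside 10.4%, 30.2% and 22.8% of all genes. Pou5f1, which encodes Oct4, was at 108 CPM in free RNA against 137 CPM in cells in the control library, 200.2 against 159 CPM in the 3 h library and 227 against 213 CPM in the 6 h library, with free RNA lower in the control only (-0.34, 0.33 and 0.09). Sox2 (-0.38, -0.55 and -0.33) and Nanog (-0.38, -0.52 and -0.28) were below cells in each library. Klf2, whose level after tubercidin was lower in both pools, was at 132 CPM in free RNA against 229.7 CPM in cells in the control library, 37.9 against 89.0 CPM in the 3 h library and 19.8 against 39.3 CPM in the 6 h library (-0.80, -1.21 and -0.95). Klf5 (-0.25, -1.21 and -0.64) was most depleted at 3 h, and Zfp42, the marker Rex1, was depleted to a similar degree throughout (-0.75, -0.65 and -0.59). Sall4 (0.36, -0.63 and 0.54) and Lin28a (0.45, -0.33 and 0.39) were above cells in the control and at 6 h and below them at 3 h. Dppa5a, a very short and abundant messenger, was at 1807 CPM in free RNA against 2549 CPM in cells in the control library, 3868 against 3555 CPM in the 3 h library and 2094 against 2263 CPM in the 6 h library (-0.50, 0.12 and -0.11).

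Other lists were described in the same way. Genes of G2 and mitosis (35 of 35) had medians of -0.45, -0.40 and -0.42 and 6, 13 and 13 members at least 1.5-fold lower, beside 10.4%, 30.2% and 22.8% of all genes. Tpx2 (-0.70, -1.11 and -0.62) and Kif20a (-0.44, -1.20 and -0.25), spindle proteins, were lowest at 3 h, and the short Ube2c (-0.74, 0.09 and -0.41), a ubiquitin-conjugating enzyme, was highest there. S phase genes (28 of 29) had medians of -0.34, -0.35 and -0.30 and heat shock genes (16 of 20) of -0.50, -0.35 and -0.41. The chaperones Hsp90ab1 (-0.71, -0.25 and -0.78) and Hspb1 (-0.89, -0.25 and -0.43) were nearest to cells at 3 h, while Hsp90aa1 (-0.08, -0.65 and -0.17) was furthest below them there. Messengers translated at the endoplasmic reticulum lay near the median of all genes: genes of that organelle (31 of 36) had medians of -0.38, -0.18 and -0.32, and genes of secreted and membrane proteins (34 of 42) of -0.12, -0.38 and -0.25. Targets of p53 (17 of 25) had medians of -0.18, -0.44 and -0.51, with Sesn2 (0.18, -1.05 and 0.02) and Eda2r (0.55, -0.82 and -0.25) depleted at 3 h and Rrm2b (0.37, 0.27 and 0.58) above cells in each library. Actb (-0.20, -0.07 and -0.02) and Aldoa (-0.05, 0.15 and 0.05) were close to cells in each library, and Gapdh (-0.60, -0.26 and -0.15) and Eno1 (-0.92, -0.33 and -0.54), enzymes of glycolysis, lay below them most clearly in the control.

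Changes seen in cells after tubercidin were read in free RNA as well. The genes were chosen by their change in cells, so their change in cells is fixed by that choice. At 3 h 37 genes were at least 2-fold higher in cells than in control cells, and in free RNA their median log2 change was 1.15, with 32 in the same direction and 20 also past 2-fold. Of the 249 lower in cells, 248 were in the same direction in free RNA and 195 past 2-fold, with a median of -1.44, beside -0.44 for all genes. At 6 h 103 genes were higher in cells, with a median of 1.22 there and 0.58 in free RNA. In free RNA 82 went in the same direction and 27 passed 2-fold. All 190 genes lower in cells at 6 h were lower in free RNA and 142 past 2-fold, with a median of -1.24, beside -0.23 for all genes. A choice by the change in cells can by itself leave a smaller change in free RNA, so the medians of the pools are not compared. Whether losses and gains differ between the pools was not tested. The median change of all genes in free RNA was negative at both times, so more genes were lower there than higher. The shares of all genes lower, higher or past 2-fold in free RNA were not counted. The counts of agreement therefore have no baseline and are a description only.

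Mcmdc2, a relative of the MCM helicases, is an example of a gain. It was at 1.15 CPM in free RNA against 1.52 CPM in cells in the control library, 21.99 against 30.3 CPM in the 3 h library and 12.7 against 44.4 CPM in the 6 h library. The free-RNA values rest on 4, 47 and 18 UMIs, and the 6 h log2 ratio was -1.72. Mdm2, the ubiquitin ligase that degrades p53, was at 79.5 CPM in free RNA against 85.3 CPM in cells in the control library, 60.3 against 88.5 CPM in the 3 h library and 166 against 243 CPM in the 6 h library, with free RNA below cells in both treated libraries. Cdkn1a, the p53 target p21, was at 8.36 CPM in free RNA against 15.4 CPM in cells in the control library, 8.42 against 9.13 CPM in the 3 h library and 16.98 against 22.2 CPM in the 6 h library, and its free-RNA values rest on 29, 18 and 24 UMIs. More cells contributing to free RNA and more RNA released per cell cannot be told apart in these sums.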

How the data were processed

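The deposited values are UMI counts per gene and barcode for 3 libraries, listed by the authors without a cell filter. Per the submitters' processing notes they were made with Cell Ranger 7.1.0 on mm10; the counting of intronic reads is not given in the sources used here. Counts were summed per pool, scaled to CPM and compared as log2 ratios of CPM + 1, with exact conditional binomial intervals for a ratio, Woolf intervals for a difference and Clopper-Pearson intervals for shares, all for counting error only. No test was run, since each condition is 1 library. Depth is given with the samples. Doublets were kept. Features came from GENCODE M21 (GRCm38) and edgeR 4.0.16 in R 4.3.3 gave TMM factors; other steps ran in Python 3.11.15 with matplotlib 3.10.9, scipy 1.17.1, pandas 2.3.3 and numpy 2.4.6. Scripts were tested on simulated data.

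Genes were named by rule: in each library the 10 highest and 10 lowest ratios with an interval that excludes 0, the 5 at either end of each difference, the 2 at either end of a list, and a fixed set, leaving out names of predicted genes. Of 232 such genes the text gives those its results turn on, with further genes of the 46 picked after their values were seen. The barcodes, lists and rules were chosen with earlier results of these data known.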

Additional observations from a re-analysis of the deposited data

Results flagged for a closer look

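Some gene lists had a free-RNA ratio that lay on opposite sides of 0 in 2 libraries. With 1 library per condition these differences were not tested, and a single library cannot be checked for standing apart from others of its condition. The mitochondrially encoded genes had a median log2 ratio of free RNA over cells of 0.24 in the control library, -1.37 at 3 h and -0.78 at 6 h. The sign in the control depended on the barcodes taken. Its mitochondrial share was 2.34% at ranks 15000 to 30000 and 2.65% with 10 to 100 UMIs, against 2.95% in cells. Without barcodes over 5% mitochondrial UMIs, a choice that lowers it by construction, the control median was -0.88. Ribosomal protein genes were at -0.44 in the control and 0.26 at 3 h, and replication-dependent histone genes, of which 14 of 60 passed the level filter, at -0.74 and 0.056.

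The relation with gene size also changed sign. Spearman's rho across genes between the log2 ratio and protein length was 0.35 in the control library, -0.56 at 3 h and -0.20 at 6 h, and with genomic span it was 0.46, -0.41 and -0.17. Among barcodes with 10 to 100 UMIs the relation was weak. There rho with protein length was 0.13 in the control and 0.010 at 3 h, and with genomic span 0.054 and -0.0021. The genes of a library share its barcodes and scaling and are not independent.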

How the results depend on the processing

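No paired analysis was possible because each condition is 1 library. Of 15 other ways of processing and 2 more added after seeing the data (CPM without the rRNA list and Camk1d, and free-RNA barcodes up to 5% mitochondrial UMIs), the values of named genes kept their size in 4975 of 5542 comparisons, moved in 538 and reversed in 29, 27 of these among barcodes with 10 to 100 UMIs. That pool had few UMIs: 136896 in the control library, 50015 at 3 h and 566604 at 6 h. Its fixed UMI limits took unlike barcodes in each library, with mean UMIs of 23.8, 28.7 and 61.3. A value counted as kept if it lay within the counting interval of the gene or shifted by less than 0.2. A gene with few UMIs and a wide interval therefore counted as kept more easily. Reversals were scored only where the main value was at least 1.5-fold. When other barcodes were taken, genes with under 10 free-RNA UMIs, counted and as read from their level in cells, got no value. Free-RNA depth limits low genes.

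The mitochondrial share of free RNA was 3.57%, 1.33% and 1.65% in the control, 3 h and 6 h libraries. It was 4.005%, 1.44% and 1.85% at ranks 5000 to 10000 and 3.07%, 1.19% and 1.40% at ranks 10000 to 15000. At ranks 15000 to 30000 it was 2.34%, 1.09% and 1.20%. Among barcodes with 10 to 100 UMIs it was 2.65%, 1.81% and 1.25%. Without barcodes over 20% mitochondrial UMIs it was 3.33%, 1.29% and 1.52%, and without those over 5% 1.63%, 0.894% and 0.897%.

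Counts moved with scaling and filter. Genes at least 1.5-fold higher in free RNA (124, 70 and 85) were 200, 185 and 186 with TMM factors, 41, 30 and 31 at a mean of at least 50 CPM and 1243, 970 and 1511 without a filter; they were 345 in the control and 180 at 6 h without the rRNA list and Camk1d, and 781 in the control and 1130 at 3 h with 10 to 100 UMIs. Genes at least 1.5-fold lower (580, 1687 and 1273) were 199, 674 and 397 with TMM factors, 347, 725 and 518 at 50 CPM and 2051, 4638 and 5028 without a filter, 59 in the control and 474 at 6 h without the rRNA list and Camk1d, and 906 in the control with 10 to 100 UMIs. For 3 h minus control, the higher genes (460) numbered 802 with TMM factors, 2127 without a filter, 95 without the rRNA list and Camk1d and 1299 with 10 to 100 UMIs. The lower genes (1280) numbered 481 at 50 CPM, 4501 without a filter and 2196 without the rRNA list and Camk1d. For 6 h minus control, the higher genes (51) numbered 154 at ranks 5000 to 10000 and 157 at ranks 10000 to 15000. They numbered 162 with TMM factors, 18 at 50 CPM, 1600 without a filter and 646 with 10 to 100 UMIs. The lower genes (636) numbered 375 with TMM factors, 164 at 50 CPM, 4170 without a filter and 1877 with 10 to 100 UMIs. A filter changes these counts through the number of genes compared; the other causes were not tested.

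The control median over all genes reversed to 0.015 without the rRNA list and Camk1d. Among barcodes with 10 to 100 UMIs in the control the ratio reversed for Mrps5 (0.18), Golgb1 (0.68), Cep164 (0.29), Hist1h1e (0.22), Cmss1 (-0.20), Cdk8 (-0.61), mt-Atp8 (-0.021), Eno1 (0.087), Hk2 (0.30), Sec61a1 (-0.23), Tpx2 (0.075), Srrm1 (0.0098), Hsp90ab1 (0.17), Nolc1 (0.46) and Mybbp1a (0.11). At 3 h it reversed there for Eif4g1 (0.23), Klf5 (0.90), Nolc1 (0.0088) and Mybbp1a (0.22), and rho with protein length was 0.010. The 3 h minus control difference reversed there to 0.86 for the rRNA list and AY036118, 0.89 for Gm42418, 1.59 for Camk1d, 0.025 for Lars2 and 0.49 for Cdk8, and the 6 h difference to 1.20 for the rRNA list and AY036118, 3.11 for Gm42418 and 0.50 for Cdk8. At ranks 15000 to 30000, mt-Nd6 at 3 h was -0.0077 and the 6 h minus control difference of Slc25a11 was -0.30.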
